A study of Mus musculus with 5 samples.

Results

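Messenger RNA levels of 36 genes, Myc and 35 factors that build ribosomes, were followed in a mouse dendritic cell line during exposure to Fanchinoline. The 36 genes were chosen by name from the 53700 genes of the deposited count table; the rule uses no measured value, but the list was drawn up with earlier results of these data known. Each had 1 entry in the table, all 36 had at least 10 CPM (counts scaled to library size) in some library, and they lie on 17 chromosomes. The cells were MutuDC, an immortalised line that models cDC1, the dendritic cells specialised in cross-presentation. Poly-A RNA was sequenced from a vehicle control, taken as 0 h, and from MutuDC cells held with Fanchinoline for 2, 6, 12 and 24 h, with 1 library per time. All 5 libraries come from this 1 line, which carries no other allele or agent in the labels, and no vehicle library was taken at a later time. The labels call the control a vehicle control, whereas the series design mentions untreated cells and triplicates. The dose is not stated, and neither is whether a library pools several cultures.

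Ribosome assembly begins in the nucleolus, where RNA polymerase I transcribes a long precursor RNA. Small nucleolar ribonucleoproteins (snoRNPs) guide its chemical modification, with box C/D particles placing ribose methyl groups and box H/ACA particles placing pseudouridines. A large assembly on the precursor then matures the small ribosomal subunit, and another set of factors matures the large one. Myc, a basic helix-loop-helix leucine zipper transcription factor, binds the E-box CACGTG together with Max, and genes for ribosome assembly are textbook targets of it. The 36 genes fall into box C/D core proteins (3), box H/ACA proteins with a snoRNP chaperone (5), small subunit factors (12), large subunit factors (8), nucleolar proteins (3), RNA polymerase I and its factors (4), and Myc.

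Myc itself was among the genes that fell, so the promoters were searched for its E-box. RefSeq promoter windows on GRCm38.p6, from 250 bases before to 50 bases after the annotated start, were matched for 30 of the 36 genes. Names without a match were Rrs1, Bop1, Rrp12, Myc, Npm1 and Fbl. CACGTG, which reads the same on both strands, occurred in the windows of 9 of these 30 genes (30.0%). It occurred in 8.09% of all 27025 genes in the promoter table and in 12.6% of the 7054 genes that reached 10 CPM in some library. Among other assembly factors it occurred in 22.9% of 35 small subunit genes and in 17.9% of 39 large subunit genes. The related hexamer CATGTG, searched also as CACATG for the other strand and distinct from CACGTG, stood in 21.6% of the 37 windows of these genes in 14.2% of all windows and in 7.73% of windows of genes that reached 10 CPM. Genes with CACGTG were Ltv1, Mybbp1a, Nop2, Pes1, Rrn3, Tsr1, Utp20, Utp4 and Wdr43. Sequences are given for Ltv1, Mybbp1a and Nop2, which fell with time, for Pes1, where the E-box lies closest to the start, and for both sites of Rrn3. CACGTG is in capitals and each sequence reads 5′ to 3′ on the gene's strand.
Ltv1, chr10:13193094-13193119, minus strand: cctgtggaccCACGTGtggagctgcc
Mybbp1a, chr11:72441357-72441376, plus strand: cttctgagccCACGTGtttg
Nop2, chr6:125131813-125131838, plus strand: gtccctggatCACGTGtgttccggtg
Pes1, chr11:3963967-3963992, plus strand: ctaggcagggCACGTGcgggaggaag
Rrn3 upstream, chr16:13780474-13780499, plus strand: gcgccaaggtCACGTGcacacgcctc
Rrn3 proximal, chr16:13780641-13780666, plus strand: acgctctgctCACGTGggccgcgtcc
The first base of the E-box lay 60 bases upstream of the start in Nop2, 215 and 48 bases upstream in Rrn3, and 2 to 40 bases downstream in the other 7 genes.

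**Figure D1:**
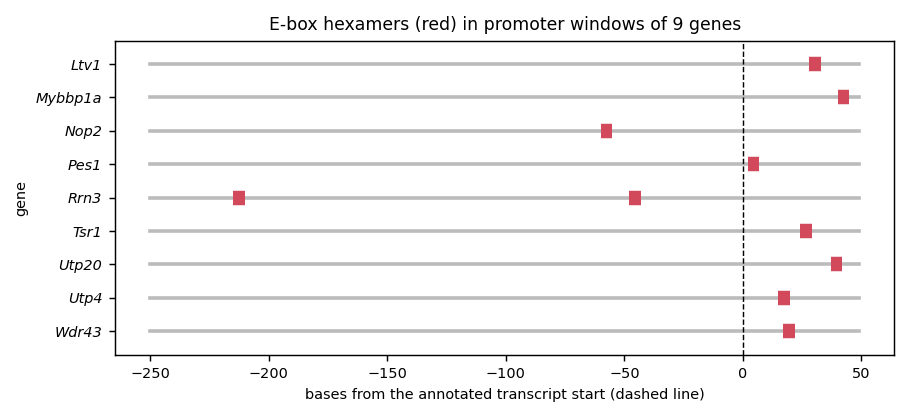
Position of CACGTG hexamers (red) in the RefSeq promoter windows (grey, from 250 bases before to 50 bases after the annotated start) of the 9 genes that hold one. The x axis is the distance in bases from the start, drawn as a dashed line; 7 genes carry their hexamer just downstream of the start, Nop2 and Rrn3 upstream of it.

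For contrast, the 250 bases upstream of the start are given for Nop2, which holds the hexamer, and for Ppan, the gene with the steepest fall, which does not. An absent hexamer says only that these letters do not stand in this window.
Nop2, chr6:125131633-125131882, plus strand: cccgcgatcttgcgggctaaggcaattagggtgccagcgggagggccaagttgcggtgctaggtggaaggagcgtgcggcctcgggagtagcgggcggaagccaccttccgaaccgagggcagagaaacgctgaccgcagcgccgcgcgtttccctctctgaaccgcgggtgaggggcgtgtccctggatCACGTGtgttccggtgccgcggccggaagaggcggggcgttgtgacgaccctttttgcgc
Ppan, chr9:20887925-20888174, plus strand: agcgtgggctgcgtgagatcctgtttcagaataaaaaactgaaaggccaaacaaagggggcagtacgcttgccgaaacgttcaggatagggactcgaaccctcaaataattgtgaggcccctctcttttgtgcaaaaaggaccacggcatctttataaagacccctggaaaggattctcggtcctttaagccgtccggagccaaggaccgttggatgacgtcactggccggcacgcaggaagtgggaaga
The 9 genes with CACGTG had a median log2 ratio of -0.23 between 24 h and 2 h of Fanchinoline, and the 21 matched genes without it had a median of -0.30. Both values are descriptions without a test. In the trend test below, before length adjustment, Mybbp1a and Nop2 of the genes with CACGTG fell within treatment. Ltv1 fell only over all 5 libraries, and Pes1, Rrn3, Tsr1, Utp20, Utp4 and Wdr43 passed in neither fit. Among matched genes without CACGTG, Nop56, Nop58, Dkc1, Gar1, Nhp2, Nop16, Polr1b, Ppan and Rrp9 fell within treatment. Nolc1 and Gnl3 there fell only over all 5 libraries. Whether hexamer and fall are linked was not tested.

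Library depth was even. Total counts were largest at 6 h (42854511) and smallest in vehicle (33568526), so a gene at 10 CPM had 328 to 427 counts, and the least abundant of the 36 genes had at least 1125 counts in every library. All 12 cDC1 markers exceeded 1 CPM (Xcr1, Clec9a and Irf8 among them), while the 4 T cell markers were at 0, which allows at most 0.0703 to 0.0915 CPM. Summed markers of B cells, neutrophils, fibroblasts and cDC2 stayed at or below 1.03 CPM, those of epithelium at 7.39 to 10.5 CPM, those of plasmacytoid cells at 21.5 to 27.8 CPM and those of macrophages at 103 to 157 CPM with Mertk and Marco at 0. The summed cDC1 markers were 8500 CPM in vehicle and 9377, 8260, 7048 and 6706 CPM at 2, 6, 12 and 24 h. Irf8 and H2-Ab1 made up most of this sum, at 4259 and 1871 CPM in vehicle and 3283 and 1092 CPM at 24 h. Clec9a, Cadm1, Tlr3 and Itgax were higher at 24 h than in vehicle, and the other markers were lower. In the trend test described next 5 of the 12 fell over the treated times and 0 rose (median slope -0.10). Among all genes tested 6.63% fell and 7.08% rose. The part of these markers in the results below was not tested. In such bulk libraries, fewer cells of a kind and less RNA per cell cannot be told apart.

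With 1 library per time no replicate spread exists, so pairs of libraries were compared by size alone. Levels are given in CPM scaled with edgeR's TMM factors, and each log2 ratio carries a 95% exact interval that covers counting error only. A gene was called higher or lower where its log2 ratio reached 1 in size, or 0.5 under a second, looser rule, with an interval clear of 0. Because time is a number, a slope could be tested in addition. edgeR's quasi-likelihood test fitted log2 level against the log2 of hours in the 4 treated libraries, and against log2(hours + 1) in all 5, with Benjamini-Hochberg adjustment over all genes kept. Its error is the scatter around the line, with 2 and 3 residual degrees of freedom per gene, not the spread between cultures. Below, "fell" is used of genes that passed this test at an adjusted p of 0.05.

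The 36 genes drifted downwards while the cells were under Fanchinoline. In the 4 treated libraries 35 of 36 slopes were below 0, with Nop10 as the exception, and 16 genes fell while 0 rose. Over all 13764 genes tested 6733 slopes were below 0, and 6.63% fell and 7.08% rose. At an unadjusted p under 0.05 there were likewise 0 rising genes among the 36, and DESeq2 and limma also placed 16 falling and 0 rising genes past the threshold, where they called 14.5% and 14.3% of all genes in either direction. Those that fell were Nop56, Nop58, Fbl, Dkc1, Gar1, Nhp2, Rrp9, Rrp12, Ppan, Nop2, Nop16, Rrs1, Bop1, Mybbp1a, Polr1b and Myc. The median slope was -0.09 log2 units per doubling of the exposure time, against 0.0027 over all genes tested. In all 5 libraries 12 genes fell and 0 rose, while 3.86% of all 13915 genes tested fell and 5.15% rose. There DESeq2 placed 17 of the 36 past the threshold and limma 12, where they called 17.3% and 9.84% of all genes in either direction. Of these 12, 9 also fell within treatment, and Nolc1, Ltv1 and Gnl3 fell only in the fit that includes vehicle; the difference between the fits was not tested. Within treatment the count was 9 without the 24 h library, 10 without 2 h and 10 without 12 h, where 6.03%, 9.76% and 6.41% of all genes tested passed. Over 5 libraries it was 3 without 6 h, 0 without 24 h and 0 without 12 h, where 2.62%, 0.300% and 0% of all genes tested passed. With no filter on low counts 0% of the whole table passed in either fit. Of the 36 genes 26 within treatment and 23 over 5 libraries then had an unadjusted p under 0.05. Among all genes 4445 of 23437 and 4843 of 24170 did.

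**Figure D2:**
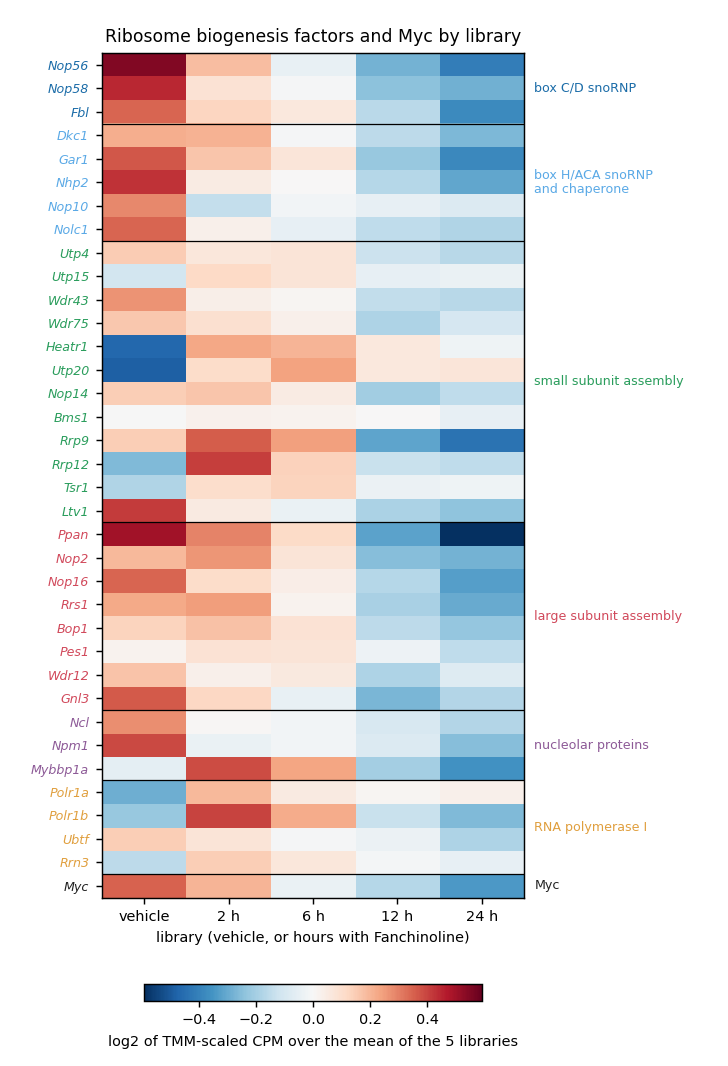
Levels of the 36 genes in the 5 libraries, in columns from vehicle to 24 h with Fanchinoline, grouped by role. Colour is the log2 of TMM-scaled CPM minus the gene's mean over the 5 libraries (red above, blue below). Of the 36 genes, 20 are highest in vehicle, 14 at 2 h and 2 at 6 h, and 24 are lowest at 24 h.

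Most of the drift lay between 6 and 12 h. The median log2 ratio of the 36 genes was -0.08 for 6 h over 2 h. It was -0.19 for 12 h over 6 h, and -0.06 over the last step, against 0.01, -0.01 and -0.03 over all 8846 genes compared. All 36 ratios were below 0 for 12 h over 6 h, and 32 of them had an interval wholly below 0. These intervals cover counting error only, and the share of all genes with such an interval is not given here. For 6 h over 2 h 30 were below 0, and for 24 h over 12 h 28 were, although scaling by total counts alone turned that last split to 16 below and 20 above. Over the whole treated span, 24 h against 2 h, the median was -0.29 against -0.03 over all genes compared, and the ratios ran from -0.89 for Ppan to 0.06 for Nop10. Under the looser rule 11 of the 36 genes were lower and 0 higher at 24 h than at 2 h, where 6.00% of all genes compared were lower and 6.04% higher. At a size of 1 none of the 36 was called in that comparison, where 1.55% of all genes were.

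Set against vehicle, the same genes gave a mixed picture at 2 h and a mostly lower one at 24 h. At 2 h 16 of 36 ratios were above 0 and 20 below (12 above with upper quartile factors), with 4 genes called higher by the looser rule and 0 lower, where 10.5% of all genes compared were higher and 5.97% lower. The 4 were Heatr1, Rrp12, Polr1b and Utp20. At 6 h 2 were higher and 1 lower (13.0% and 6.16% of all genes compared), and at 12 h 2 were higher and 10 lower (14.4% and 8.52%). At 24 h 1 gene was higher and 14 lower by the looser rule, beside 15.3% higher and 12.2% lower among all genes compared. By the rule of size 1 Ppan alone was lower and none higher, beside 1.23% lower and 2.86% higher among all genes compared. The median log2 ratio was -0.07, -0.14, -0.36 and -0.40 at 2, 6, 12 and 24 h over vehicle, while the median over all genes compared was at most 0.04 in size.

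Transcript length moved with every ratio to vehicle. With all genes compared put in 5 equal groups by length, the median log2 ratio of the longest transcripts exceeded that of the shortest by 0.62, 0.66, 0.70 and 0.76 at 2, 6, 12 and 24 h over vehicle, but by only 0.13 for 24 h over 2 h. GC content moved with that last ratio, whose median in the highest of 5 equal groups by GC content minus that in the lowest was -0.37. Mitochondrially encoded genes took 1.47% to 1.78% of counts in the treated libraries and 2.58% in vehicle. Across the 36 genes, which share libraries and scaling, the Spearman correlation of median transcript length with the ratio was 0.60 at 2 h and 0.73 at 24 h over vehicle, and 0.38 for 24 h over 2 h. The 18 longer genes had a median log2 ratio of 0.15 and the 18 shorter ones of -0.20 at 2 h over vehicle. All 4 genes called higher at 2 h belong to the longer ones, with median transcripts of 6780 bases for Heatr1, 4340 for Rrp12, 3383.5 for Polr1b and 8821 for Utp20.

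Ratios were therefore also computed after subtracting, in each comparison, the dependence on transcript length and GC content fitted over the genes compared. For trends, the dependence was fitted in each library over the genes tested. With this adjustment 0 of the 36 genes was higher than vehicle by the looser rule at 2, 6, 12 or 24 h, where 3.75%, 5.40%, 7.05% and 8.92% of all genes compared were. Lower by that rule were 1, 3, 5 and 9 genes at these times, beside 2.17%, 2.37%, 5.06% and 7.88% of all genes compared, and 7 for 24 h over 2 h, beside 4.75%. At a size of 1 Nop58 and Ncl were lower at 24 h over vehicle, beside 0.883% of all genes compared. These calls depended on the length used, since by coding length Nop58 was at -0.83, Ncl at -0.63 and Nop56 at -1.03. The median at 24 h over vehicle was -0.37 adjusted and -0.40 unadjusted, and 35 of 36 adjusted ratios were below 0, Tsr1 at 0.04 being the exception. For 24 h over 2 h all 36 adjusted ratios were below 0, with a median of -0.36. In the trend over the treated libraries 18 genes fell after adjustment and all 36 slopes were below 0, where 9.24% of 13717 genes changed in either direction. Of the 16 that fell without adjustment 14 remained; Nhp2 and Bop1 did not (adjusted p = 0.0633 and 0.124 by edgeR), and Heatr1, Ltv1, Gnl3 and Ncl were added. In the trend over 5 libraries 15 genes fell after adjustment, among them all 12 of the unadjusted fit, where 10.5% of 13868 genes changed in either direction. The adjustment acted unequally on single genes. For 24 h over 2 h Ppan was at -0.67 adjusted and -0.89 unadjusted, Rrp9 at -0.58 adjusted and -0.79 unadjusted, and the looser rule called 7 genes adjusted and 11 unadjusted.

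**Figure D3:**
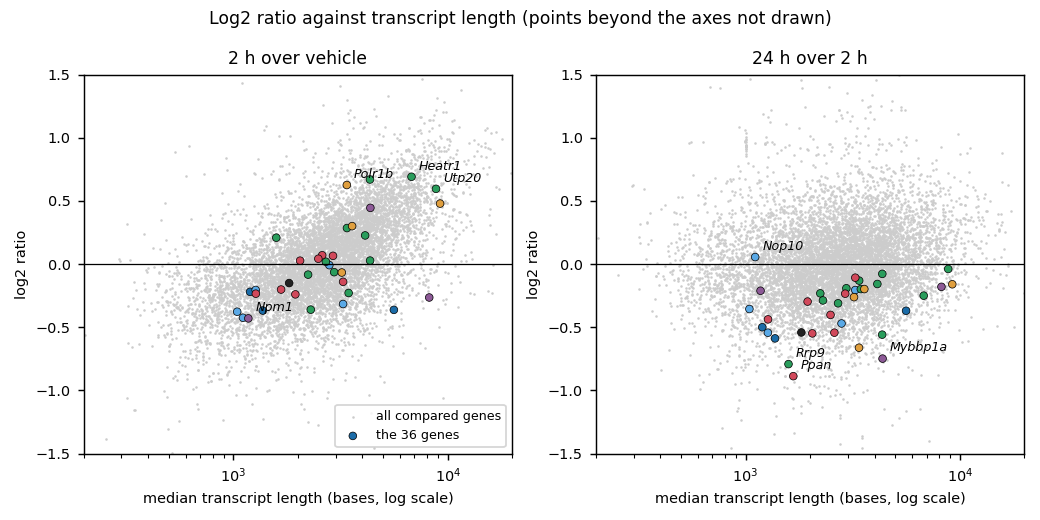
Log2 ratio against median transcript length (bases, log axis) for 2 h over vehicle (left) and 24 h over 2 h (right). Grey points are all compared genes and coloured points the 36 genes, coloured by role as in the plot of levels by library. On the left the cloud rises with length and Heatr1, Utp20 and Polr1b sit high in it; on the right the cloud is nearly level and 35 of the 36 genes lie below 0.

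The box C/D core fell as a block. Nop56, a scaffold protein of these particles (chr2:130274430-130279313, plus strand, GRCm38), stood at 370.0 CPM in vehicle and 287, 246, 208 and 191 CPM at 2, 6, 12 and 24 h. Every later library was lower than the one before, and its slope within treatment was -0.17 per doubling (adjusted p = 0.00685, edgeR). Its log2 ratio was -0.59 for 24 h over 2 h (interval -0.63 to -0.55) and -0.96 for 24 h over vehicle (-0.997 to -0.92). Nop58, the partner scaffold, had 159 CPM in vehicle and 123, 116, 98.4 and 95.6 CPM at 2, 6, 12 and 24 h. It too declined in each library, with most of its difference from vehicle already present by 6 h. For 24 h over 12 h, however, its interval of -0.11 to 0.02 included 0, and scaling by total counts alone put that ratio above 0. Fbl, fibrillarin, the ribose methyltransferase of the particle, had 397 CPM in vehicle and 341, 327, 279.8 and 241 CPM at 2, 6, 12 and 24 h. Its log2 ratio for 24 h over 12 h was still -0.22, against -0.04 for Nop58. All 3 fell in both trend fits, and their median log2 ratio was -0.50 for 24 h over 2 h. Adjusted for length and GC content the ratios at 24 h over vehicle were -0.72 for Nop56, -1.12 for Nop58 and -0.43 for Fbl. The value for Nop58 rests on a median transcript length of 5610 bases for a coding sequence of 1608 bases, and adjusting by coding length gave -0.83.

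Among box H/ACA proteins 3 of 5 fell within treatment. Gar1, a core protein of the particle, had 58.3 CPM in vehicle and 50.6, 47.4, 38.7 and 34.7 CPM at 2, 6, 12 and 24 h, with a slope of -0.16 within treatment (adjusted p = 0.0152, edgeR). Dkc1, dyskerin, the pseudouridine synthase, had 50.7 CPM in vehicle and 50.4, 43.5, 39.3 and 36.4 CPM at 2, 6, 12 and 24 h. Without adjustment Dkc1 was thus level over the first 2 h and lower only afterwards. Adjusted for length and GC content its log2 ratio at 2 h over vehicle was 0.16. Dkc1 fell within treatment (slope -0.13) but missed the threshold over all 5 libraries (adjusted p = 0.0525, edgeR). Nhp2, another core protein, had 156 CPM in vehicle and 119.9, 116, 103.0 and 93.7 CPM at 2, 6, 12 and 24 h. Nop10, the smallest protein of the core, had 59.3 CPM in vehicle and 44.2, 48.1, 47.0 and 45.9 CPM at 2, 6, 12 and 24 h. Its treated libraries all lay below vehicle without an order among them. Nop10 was the only one of the 36 genes with an unadjusted ratio above 0 for 24 h over 2 h. Adjusted for length and GC content, its log2 ratio to vehicle was -0.06, 0.06, -0.02 and -0.07 at 2, 6, 12 and 24 h. Nolc1, a nucleolar chaperone of snoRNPs, had 221 CPM in vehicle, 178 at 2 h and 154 at 24 h, so that most of its difference from vehicle was already present at 2 h.

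Small subunit factors took diverse courses. Of these, 2 of 12 fell within treatment, Rrp9 and Rrp12, and the median log2 ratio for 24 h over 2 h was -0.21 with all 12 below 0. Rrp9, the protein that binds U3 snoRNA (chr9:106475963-106485424, plus strand), had 53.0 CPM in vehicle and 61.3, 56.7, 38.6 and 35.4 CPM at 2, 6, 12 and 24 h. Both early treated libraries were above vehicle and both late ones below it, and the step from 6 h to 12 h, a log2 ratio of -0.56, was the only one past the looser rule between consecutive treated libraries for any of the 36 genes (1.49% of all genes compared were lower at that step, 0.486% at 6 h over 2 h and 0.418% at 24 h over 12 h). Adjusted for length and GC content it was -0.44, short of that rule. Its slope within treatment was -0.24 (adjusted p = 0.0109, edgeR). Rrp12, an export and maturation factor of small subunit precursors, had 47.5 CPM in vehicle and 75.6, 62.7, 52.0 and 51.3 CPM at 2, 6, 12 and 24 h. It peaked at 2 h and came back almost to vehicle, with a log2 ratio of 0.11 at 24 h over vehicle and -0.16 after adjustment.

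The subcomplex of the small subunit assembly that binds the precursor RNA earliest, here Utp4, Utp15, Wdr43, Wdr75 and Heatr1, held none that passed within treatment. Heatr1, the largest of them, had 68.1 CPM in vehicle and 110.0, 108, 98.0 and 92.5 CPM at 2, 6, 12 and 24 h, above vehicle throughout and lower in each later treated library than in the one before. After adjustment its log2 ratio to vehicle was 0.30 at 2 h and -0.08 at 24 h, and its slope within treatment passed the test (-0.10, adjusted p = 0.0390, edgeR). Utp15 ranged from 62.6 to 73.3 CPM, Wdr75 from 61.8 to 78.2 CPM, Wdr43 from 68.8 to 92.6 CPM and Utp4 from 139 to 173 CPM, each with its vehicle level at one end of the range. Utp20, a long scaffold protein of the assembly, had 43.2 CPM in vehicle and 65.2, 71.3, 63.1 and 63.5 CPM at 2, 6, 12 and 24 h, the single gene called higher at 24 h over vehicle (0.56, interval 0.46 to 0.65). Adjusted for length and GC content that ratio was -0.09. Bms1, a GTPase of the assembly, was the flattest of all 36 genes, at 83.6 to 88.2 CPM in the 5 libraries. Ltv1, a late factor of small subunit maturation, had 67.4 CPM in vehicle and 52.5, 49.2, 44.5 and 42.96 CPM at 2, 6, 12 and 24 h and fell over the 5 libraries (slope -0.14, adjusted p = 0.0295, edgeR). Tsr1, another late factor, ranged between 70.1 and 87.0 CPM with its lowest level in vehicle, and Nop14, a core assembly factor, ranged between 45.1 and 58.1 CPM.

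Among large subunit factors 5 of 8 fell within treatment, and all 8 were lower at 24 h than at 2 h (median log2 ratio -0.42). Ppan, the mouse relative of the yeast assembly factor Ssf1 (chr9:20888175-20892178, plus strand), had 124 CPM in vehicle and 108, 94.98, 70.4 and 58.2 CPM at 2, 6, 12 and 24 h. No other of the 36 genes spanned as wide a range, and its level declined at every step. Its log2 ratio was -0.89 for 24 h over 2 h (interval -0.96 to -0.82) and -1.09 for 24 h over vehicle (-1.16 to -1.02), with a slope within treatment of -0.25 (adjusted p = 0.00455, edgeR). Nop2, which methylates a cytosine of the large ribosomal RNA, had 178 CPM in vehicle and 186, 164, 130.5 and 128 CPM at 2, 6, 12 and 24 h. Its level was close to vehicle at 2 h and below it at 12 and 24 h. Rrs1, an early assembly factor, took a like course with 79.0 CPM in vehicle and 80.5, 68.6, 59.4 and 55.0 CPM at 2, 6, 12 and 24 h. Nop16, a further nucleolar assembly factor, had 139 CPM in vehicle, 118 at 2 h and 87.0 at 24 h, and Gnl3, the GTPase nucleostemin, had 61.7 CPM in vehicle, 52.2 at 2 h and 42.5 at 24 h.

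Bop1, Pes1 and Wdr12, which form the PeBoW complex needed for large subunit processing, were split by the test. Bop1 had 178 CPM in vehicle and 183, 172, 146 and 139 CPM at 2, 6, 12 and 24 h, and it fell within treatment (slope -0.12, adjusted p = 0.0219, edgeR). Pes1 had 303 CPM in vehicle and 317, 315, 293 and 269 CPM at 2, 6, 12 and 24 h, a slope of -0.06 that did not pass (adjusted p = 0.132). Wdr12 had 56.8 CPM in vehicle and 51.5, 52.6, 44.4 and 47.8 CPM at 2, 6, 12 and 24 h, with a slope of -0.04 that did not pass either (adjusted p = 0.404). The difference between the slopes of these subunits was not tested.

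The abundant nucleolar proteins Ncl and Npm1 were lower in every treated library than in vehicle but did not pass within treatment. Ncl, nucleolin, which binds nascent ribosomal RNA, had 1061 CPM in vehicle and 883, 868, 822 and 779.6 CPM at 2, 6, 12 and 24 h. Npm1, the nucleolar chaperone nucleophosmin, had 685 CPM in vehicle and 509, 517, 495 and 439 CPM at 2, 6, 12 and 24 h. Their slopes within treatment were both -0.05 and did not pass (adjusted p = 0.240 and 0.245, edgeR). Ncl passed after adjustment (-0.11, adjusted p = 0.0346, edgeR), with a median transcript length of 8202 bases behind that adjustment. For Npm1 the adjusted log2 ratio to vehicle was 0.06, 0.05, -0.10 and -0.33 at 2, 6, 12 and 24 h. Adjusted by coding length it was -0.16, -0.18, -0.32 and -0.55 at these times. Its side of vehicle at 2 and 6 h thus depended on the length used. Mybbp1a, a nucleolar protein that binds transcription factors and RNA polymerase I (chr11:72441355-72451768, plus strand), took another course. It had 323 CPM in vehicle and 440.1, 395, 292 and 262 CPM at 2, 6, 12 and 24 h, above vehicle early and below it late. Its slope within treatment was -0.22 (adjusted p = 0.00723, edgeR), and its log2 ratio for 24 h over 2 h was -0.75 unadjusted and -0.70 adjusted.

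RNA polymerase I was represented by both of its large catalytic subunits and 2 initiation factors. Polr1b, the second largest subunit (chr2:129100995-129126594, plus strand), had 34.3 CPM in vehicle and 53.0, 46.7, 36.6 and 33.5 CPM at 2, 6, 12 and 24 h. Its highest level was at 2 h, and its unadjusted 24 h level was close to that of vehicle. Adjusted for length and GC content its log2 ratio at 24 h over vehicle was -0.17 (interval -0.28 to -0.05). Within treatment Polr1b fell (slope -0.19, adjusted p = 0.00881, edgeR). Polr1a, the largest subunit, had 132 CPM in vehicle and 183, 167, 162 and 164 CPM at 2, 6, 12 and 24 h, and stayed above vehicle. Adjusted for length and GC content, with a median transcript of 9216 bases, Polr1a was at -0.14 at 2 h and -0.37 at 24 h over vehicle. Ubtf, the factor that opens ribosomal DNA for transcription, had its lowest level at 24 h (195 CPM) and its highest in vehicle (244 CPM), and Rrn3, which links the polymerase to its promoter factors, was highest at 2 h (72.9 CPM) and lowest in vehicle (59.2 CPM). Neither passed within treatment (adjusted p = 0.103 for Ubtf and 0.156 for Rrn3, edgeR).

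Myc (chr15:61985391-61990374, plus strand) had 264 CPM in vehicle and 238, 201, 184 and 163 CPM at 2, 6, 12 and 24 h. Each library was lower than the one before, with log2 ratios of -0.15, -0.24, -0.13 and -0.17 over the 4 successive steps. Its log2 ratio was -0.54 for 24 h over 2 h (interval -0.59 to -0.50) and -0.69 for 24 h over vehicle (-0.74 to -0.65), with -0.45 and -0.54 after adjustment. It fell in both trend fits, with slopes of -0.15 each (adjusted p = 0.00845 within treatment and 0.0240 over 5 libraries, edgeR). Myc fell beside 15 of the 35 assembly genes within treatment, and whether its level and theirs are linked was not tested.

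**Figure D4:**
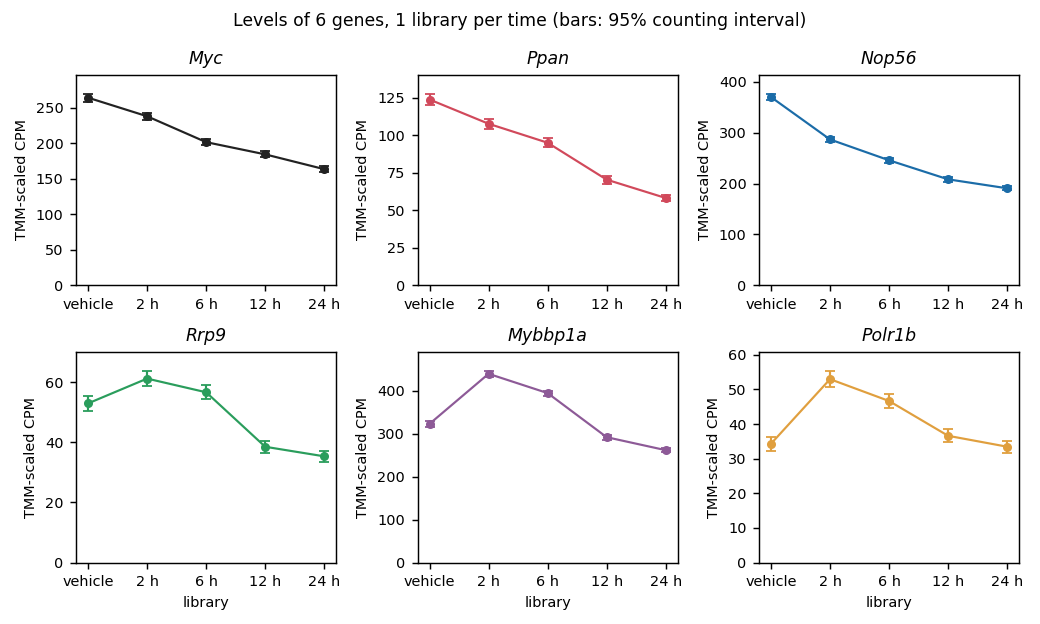
TMM-scaled CPM of Myc, Ppan, Nop56, Rrp9, Mybbp1a and Polr1b in the 5 libraries, from vehicle to 24 h with Fanchinoline; times are evenly spaced and not to scale, points are single libraries and bars are 95% counting intervals. Myc, Ppan and Nop56 decline from vehicle on, whereas Rrp9, Mybbp1a and Polr1b are highest at 2 h (61.3, 440.1 and 53.0 CPM) and then decline.

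**Figure D5:**
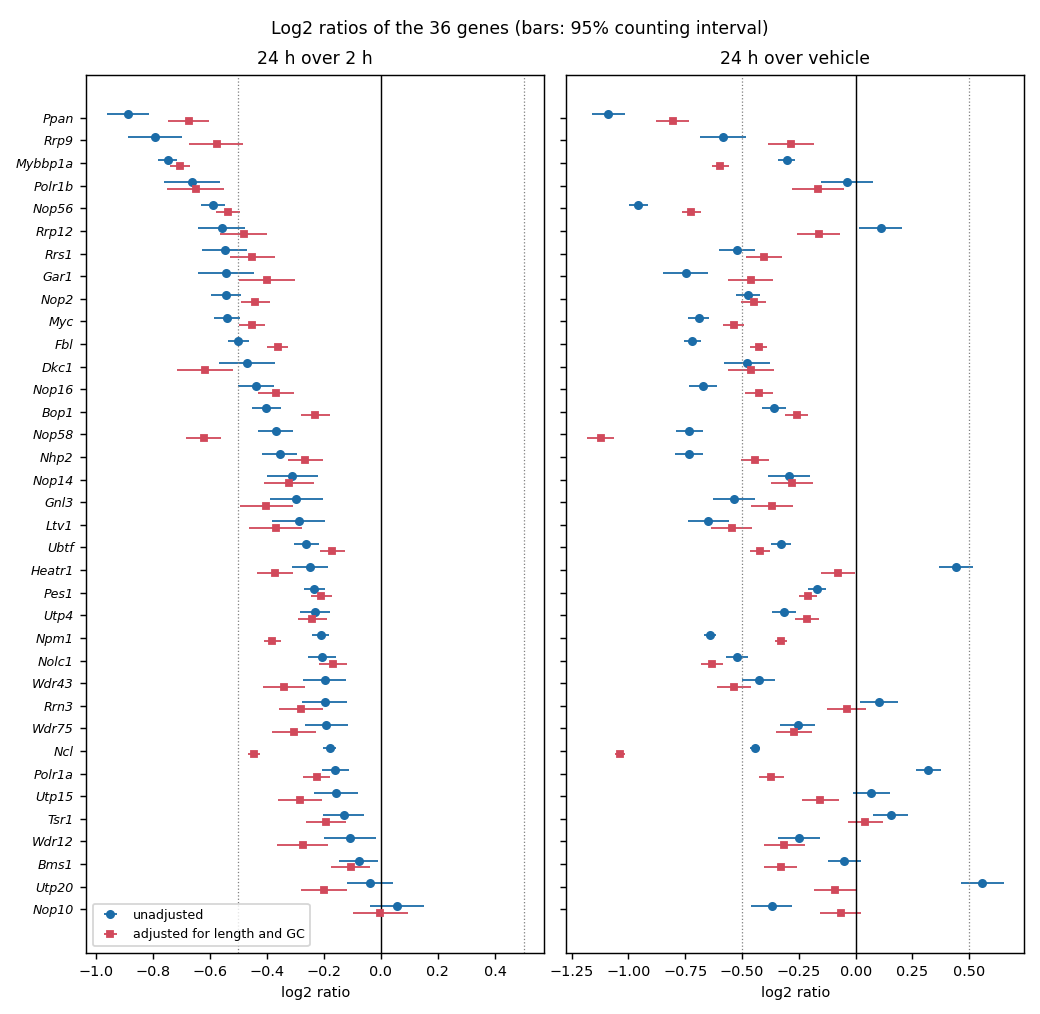
Log2 ratios of the 36 genes for 24 h over 2 h (left) and 24 h over vehicle (right), unadjusted (blue circles) and adjusted for transcript length and GC content (red squares), with 95% counting intervals as bars and dotted lines at a size of 0.5. On the left 35 of 36 unadjusted and all 36 adjusted values lie below 0; on the right the values above 0 for Heatr1, Utp20, Polr1a and Rrp12 drop to or below 0 after adjustment.

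Fall and abundance can be set side by side only per length. By mean CPM per kilobase of median transcript, Npm1 (451), Fbl (265), Nop56 (189.7) and Myc (115) were the most abundant by this measure, and Utp20 (6.95), Polr1b (12.1) and Rrp12 (13.3) the least. By coding length the order differed, with Npm1 (604) followed by Ncl (416), Fbl (323), Nhp2 (256) and Nop10 (255) ahead of Nop16 (204), Pes1 (169.7), Myc (154) and Nop56 (149.6). Genes that fell within treatment stood at both ends of the first order. The 36 genes together took 0.615% of all counts in vehicle and 0.585%, 0.553%, 0.493% and 0.488% at 2, 6, 12 and 24 h.

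Counting could blur a few of these values. The kit does not mark strand, and 11 of the 36 genes share exon positions with a protein-coding gene on the other strand, such as Rrp9 with Parp3 and Nop56 with Idh3b. Parp3 was at 64.2 to 75.5 CPM and Idh3b at 106 to 117 CPM before TMM scaling, both with a narrow range. Mroh1, opposite Bop1, had 75.3 CPM in vehicle and 113, 115, 110.2 and 144 CPM at 2, 6, 12 and 24 h, and Pbrm1, opposite Gnl3, had 38.3 CPM in vehicle and 55.0, 63.0, 63.2 and 74.2 CPM at these times. These partners were higher in every treated library than in vehicle, and how many of their reads were counted for Bop1 or Gnl3 is not known. Within 8 of these genes lie 23 snoRNA genes (5 in Nop56, 4 in Nop58), some of them on exon positions of the host. The 22 with an entry in the count table had at most 18 counts each over all libraries, and how many of their reads were counted for the host is not known. Near copies elsewhere in the genome, with at least 95% identity over 300 bases, existed for 5 genes and held at most 1.14% of the reads, for Nop56.

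Assembly factors outside the 36 genes also had slopes mostly below 0. Of 43 other small subunit factors 15 fell and 1 rose within treatment, with 34 slopes below 0, and of 46 other large subunit factors 18 fell and 0 rose, with 43 slopes below 0. Over all genes tested 6.63% fell and 7.08% rose, and the difference from the 36 genes was not tested. Their median slopes were -0.05 and -0.07 per doubling. Noc2l, a large subunit factor, had 287 CPM in vehicle and 262, 244, 190.1 and 141 CPM at 2, 6, 12 and 24 h, with a log2 ratio of -0.89 for 24 h over 2 h and a slope of -0.24 (adjusted p = 0.00954, edgeR). Aatf, a small subunit factor, was at 25.7 CPM at 24 h and 38.3 at 2 h, and it fell as well (slope -0.18, adjusted p = 0.0241). Utp18, of the small subunit assembly, also fell (slope -0.14, adjusted p = 0.0440), while Utp11 (-0.05), Rpf2 (-0.03) and Ebna1bp2 (-0.08) did not pass within treatment. Rpf2, a large subunit factor, was instead at 47.2 CPM in vehicle, 24.9 at 2 h and 22.9 at 24 h. Its log2 ratio was -0.92 for 2 h over vehicle and -0.13 for 24 h over 2 h. Adjusted for length and GC content these ratios were -0.49 and -0.30.

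Of 11 other RNA polymerase I subunits and factors 2 fell and 0 rose within treatment, where 6.63% of all genes tested fell and 7.08% rose. Taf1b, of the promoter selectivity factor, was one of the 2 that fell (slope -0.17, adjusted p = 0.0438, edgeR). Taf1d and Polr1h had slopes of -0.05 each and did not pass. Of 14 subunits and cofactors of the nuclear exosome, which trims ribosomal RNA precursors, 1 fell and 1 rose within treatment, close to the share among all genes tested. Their median slope was 0.01; the difference between the lists was not tested. Exosc3 was at 23.3 CPM at 24 h and 35.4 at 2 h (adjusted p = 0.0771), and neither Exosc1 (-0.09) nor Exosc9 (0.03) passed.

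Partners and antagonists of Myc were split. Of 15 such genes 2 fell and 2 rose within treatment, where 6.63% of all genes tested fell and 7.08% rose. Their median slope was 0.02, and the difference from all genes was not tested. Max, the obligate partner, had 289 CPM in vehicle and 240.1, 252, 269.5 and 249 CPM at 2, 6, 12 and 24 h, with a slope of 0.03 (adjusted p = 0.522, edgeR). Mga, a very large repressor that also pairs with Max, had 26.8 CPM in vehicle and 43.5, 47.6, 49.6 and 58.1 CPM at 2, 6, 12 and 24 h and rose within treatment (slope 0.11, adjusted p = 0.0326). Its log2 ratio at 24 h over vehicle was 1.12, and 0.31 after adjustment for length and GC content. For 24 h over 2 h it was 0.42, and 0.08 after that adjustment. Mxd1, a Myc antagonist, was at 15.8 CPM at 24 h and 12.1 at 2 h, and Trrap, a Myc cofactor, at 213 CPM at 24 h and 195 at 2 h. Neither passed within treatment.

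Textbook Myc targets outside ribosome assembly mostly had slopes below 0 within treatment, 20 of 24, with a median slope of -0.10. Of the 24, 12 fell and 3 rose, where 6.63% of all genes tested fell and 7.08% rose. The difference from the 36 genes was not tested. Tfrc and Ldha, described below, belong to the 3 that rose. Shmt2, a mitochondrial serine enzyme, had 474 CPM in vehicle and 536, 550.3, 335 and 245 CPM at 2, 6, 12 and 24 h, and it fell (slope -0.33, adjusted p = 0.0152, edgeR). Like Rrp9 and Mybbp1a it was above vehicle early and below it late. Tfrc, the transferrin receptor, had 85.7 CPM in vehicle and 135, 219, 221 and 241 CPM at 2, 6, 12 and 24 h and rose (slope 0.23, adjusted p = 0.0143). Ldha, lactate dehydrogenase A, had 2114 CPM in vehicle and 2395, 3255, 4556 and 4108 CPM at 2, 6, 12 and 24 h and also rose (slope 0.25, adjusted p = 0.0129).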

How the data were processed

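Poly-A RNA-seq of 5 MutuDC libraries (TRIzol, TruSeq RNA kit without strand marking, per the labels' protocols) was analysed. The authors deposited 1 table of raw counts per gene. Trim Galore, HISAT2 and the build GRCm38 are named, without versions, per the submitters' processing notes; the counting program, its annotation and whether strand was used were not stated. If the counts were derived from coverage, which the files leave unsaid, the intervals would not hold as given.

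Scaling used TMM (edgeR 4.0.16, R 4.3.3), and log2 CPM were taken after adding a prior count of 2. Genes reaching 10 CPM in some library were compared. Intervals are exact (Clopper-Pearson, 95%) and cover counting error only, since PCR duplicates are not told apart. Trends were tested with edgeR after filterByExpr, with DESeq2 1.42.0 and limma 3.58.1 as alternatives, and the script was tested on simulated data. Length and GC content came from GENCODE M21 (97.0% of table genes found) and were fitted by robust regression with splines (MASS). Adjusted ratios used 1 fit per comparison, and adjusted trends used 1 fit per library as an offset.

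All 36 genes are named; of other lists, the 3 genes with the largest ratio at 24 h over vehicle, plus Max. Members and lists were chosen with earlier results of these data known.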

Additional observations from a re-analysis of the deposited data

Results flagged for a closer look

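Rrp9, Nop2, Pes1 and Mybbp1a stood above vehicle at 2 h and below vehicle at 24 h, with both counting intervals clear of 0. The 24 h log2 ratio minus the 2 h log2 ratio was -0.79 for Rrp9 (-0.58 at 24 h and 0.21 at 2 h) and -0.75 for Mybbp1a (-0.30 and 0.44). It was -0.54 for Nop2 (-0.47 and 0.07) and -0.23 for Pes1 (-0.17 and 0.07). Both ratios share the vehicle library, and the difference itself was not tested between cultures. After adjustment for transcript length and GC content Rrp9 was at -0.28 at 24 h and 0.28 at 2 h and Mybbp1a at -0.60 and 0.11, while for Nop2 (-0.45 and -0.01) and Pes1 (-0.21 and -0.00) the 2 h interval then included 0.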

How the results depend on the processing

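No paired analysis was possible because each time point has 1 library and no replicate numbers. At a size of 0.5 in place of 1 the count of called genes among the 36 was 4, 3, 12 and 15 at 2, 6, 12 and 24 h over vehicle, 11 for 24 h over 2 h, and 1 between 6 h and 12 h. With that size and the adjustment for length and GC content, chosen after seeing the data, it was 1, 3, 5 and 9 over vehicle and 7 for 24 h over 2 h. At a size of 1 and 24 h over vehicle Ppan alone was called. After adjustment by transcript length the count was 2 (Nop58 and Ncl, at -0.83 and -0.63 by coding length). With upper quartile factors it was 2, and with total counts alone 0. That last scaling shifted the median of all genes by 0.10 there, and it moved the median of the 36 genes to -0.30 at 24 h over vehicle, 0.0145 for 24 h over 12 h, and -0.21 over the whole treated span. Adjusting moved the median for 24 h over 2 h to -0.36 by transcript length or by coding length, and coding length moved that for 2 h over vehicle to -0.14. The trend counts depended on the filter and on single libraries. Without a filter on low counts 0 genes passed in either fit by edgeR, among the 36 or among the 24170 and 23437 genes tested. An unadjusted p under 0.05 was kept by 23 and 26 of the 36, and by 4843 and 4445 of all genes. A slope on hours gave 0 over 5 libraries, where 0 of all genes passed. Unadjusted it gave 21, beside 2728 of all 13915 genes. Within treatment that slope gave 12, where 9.74% of all genes passed. Leaving out each library in turn gave 0 to 16 genes over 5 libraries. Without 12 h it was 0 (15 unadjusted, beside 2815 of all 13824 genes). Without 24 h it was 0 (17 unadjusted, beside 3203 of all 13654 genes). Without 6 h, 2 h and vehicle it was 3, 13 and 16. In the same order 0, 41, 359, 2064 and 2158 genes of the whole table passed. Within treatment, leaving out each library gave 9 to 16, with 9 without 24 h, 10 without 2 h, 10 without 12 h and 16 without 6 h. Of all genes 6.03%, 9.76%, 6.41% and 15.7% passed there. The cause was not tested. DESeq2 gave 17 over 5 libraries and 16 within treatment, and limma 12 and 16. Of the 36 genes, all past the threshold in these fits had slopes below 0. The half-width of the counting interval was at most 0.115 log2 units per ratio; the spread between cultures was not measured.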
